A study of Sus scrofa with 8 samples.

Results

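Translation factors and aminoacyl-tRNA synthetases are the soluble proteins that, with the ribosome, turn messenger RNA into protein. Initiation factors bring the start tRNA and the capped message to the small ribosomal subunit, elongation factors deliver charged tRNAs and move the ribosome along the message, and synthetases join each amino acid to its tRNA. The liver makes most of the proteins of the blood plasma. When amino acids run short, kinases that phosphorylate the initiation factor EIF2 slow general initiation, and EIF4E-binding proteins, which mTORC1 phosphorylates, hold back the cap-binding factor EIF4E.

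The members were the genes whose deposited symbol starts with EIF or EEF, or whose deposited title names a tRNA synthetase or tRNA ligase. They numbered 41 of the 8238 genes with a single deposited symbol, and held 58 of the 23999 probe sets tested. There were 14 initiation factors and their regulators, 2 elongation factors and 25 genes of the synthetase class, of which 17 were cytosolic synthetases, 7 mitochondrial synthetases and 1 the scaffold protein AIMP1. No member was removed by a filter on low signal. A probe set is a group of short oligonucleotides against a transcript, and each gene was represented by its brightest one, judged by the mean of the 8 arrays. Symbols were updated through a current pig gene table, so that the synthetase members HARS and GARS, for example, carry the names of formerly provisional loci.

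The samples were livers of lactating sows and of non-lactating control sows (Sus scrofa, domestic pig), with 8 females in each group. Equal amounts of RNA from 2 sows made a pool, and each of the 4 lactating pools and 4 non-lactating pools was hybridised to 1 Affymetrix Porcine array. The labels used here give no breed, age, stage of lactation or diet. A pool is the replicate, so n below counts pools, and spreads are those of averages of 2 animals. Values are log2 signals after RMA, which brings all arrays to a common distribution of signals and gives 1 value to each probe set, and differences are lactating minus non-lactating.

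The 7 measured hepatocyte markers had a mean log2 signal of 14.60 to 14.63 in lactating pools and 14.57 to 14.64 in non-lactating pools, high on the scale in every pool, and 1 of them, SERPINA1, fell (-0.32; limma adjusted p = 0.0212). Some markers of other liver cells moved with the groups: 4 of 7 endothelial markers and 2 of 9 stellate cell and fibroblast markers fell, with median differences of -0.33 and -0.45. Over all genes 8.63% passed the same limma test under updated symbols, and 2.52% were lower under deposited symbols. Of the remaining lists, 1 of 6 T and NK cell markers fell in the limma test. In the same test 0 of 6 Kupffer cell, 0 of 3 neutrophil and 0 of 3 cholangiocyte markers passed. At an unadjusted p below 0.05 there were 3 T and NK cell markers, all lower, and 1 Kupffer cell marker, which was higher. There were 0 neutrophil and 0 cholangiocyte markers at that level, and no erythroid marker was measured. The neutrophil list averaged 4.11 to 4.24 in lactating and 4.05 to 4.65 in non-lactating pools. These signals lay near the array floor (S100A12 at 4.10), so the neutrophil count says little. The part of these cells in the results below was not tested, and in whole liver fewer cells of a type and less RNA per cell cannot be told apart. RNA integrity moved with the groups as well. The log2 signal at the 3′ end minus that at the 5′ end of 3 control transcripts, which grows as RNA breaks down, averaged 3.75 ± 0.29 in lactating pools and 4.47 ± 0.40 in non-lactating pools (SD, n = 4 each; exact permutation p = 0.0286, two-sided, the smallest that 4 against 4 pools allow). Taken singly, the transcripts gave exact permutation p-values of 0.0286 for GAPDH, 0.0571 for actin and 0.0857 for EF1ALPHA. Each was 0.0857 after adjustment over the 3. Non-lactating pool 1 had the highest reading of their mean, 5.02.

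EIF4EBP1, EIF3M, HARS and GARS were higher in lactating livers, by 1.26-fold to 1.47-fold, and no member was lower (limma, adjusted p below 0.05 over all 23999 probe sets). These 4 genes are 9.76% of the 41 members, where 8.61% of all genes with a single deposited symbol changed, 6.08% upward and 2.52% downward, and 6.85% of all probe sets. The share called was therefore near the background, and the members are described by size and direction. Of the 41, 36 had a positive difference, against 52.4% of all genes in the same fit. After cyclic loess normalisation 32 of the 41 were positive, and the median over all probe sets moved from -0.0085 to -0.0003. With the 3′ minus 5′ reading as a covariate, 29 were positive and 0 passed, and the differences were 0.66 for EIF4EBP1, 0.29 for EIF3M, 0.26 for HARS and 0.21 for GARS, in a fit that called none of the 23999 probe sets and gave 2474 at an unadjusted p below 0.05, 3 of them members. The median difference was 0.16 over the members, against 0.01 over all genes. All genes are a dimmer background, with a mean log2 signal of 7.75 to 7.77 in lactating pools. Initiation factors averaged 8.97 to 9.09 there, and synthetases 9.20 to 9.23. The part of signal level in this contrast was not tested. At an unadjusted p below 0.05 there were 14 members, 13 of them higher, beside 27.3% of all genes. In 9 members every lactating pool lay above every non-lactating pool, where 12.7% of all genes did so, and 1 member (IARS) showed the opposite, where 6.49% of genes did.

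**Figure D1:**
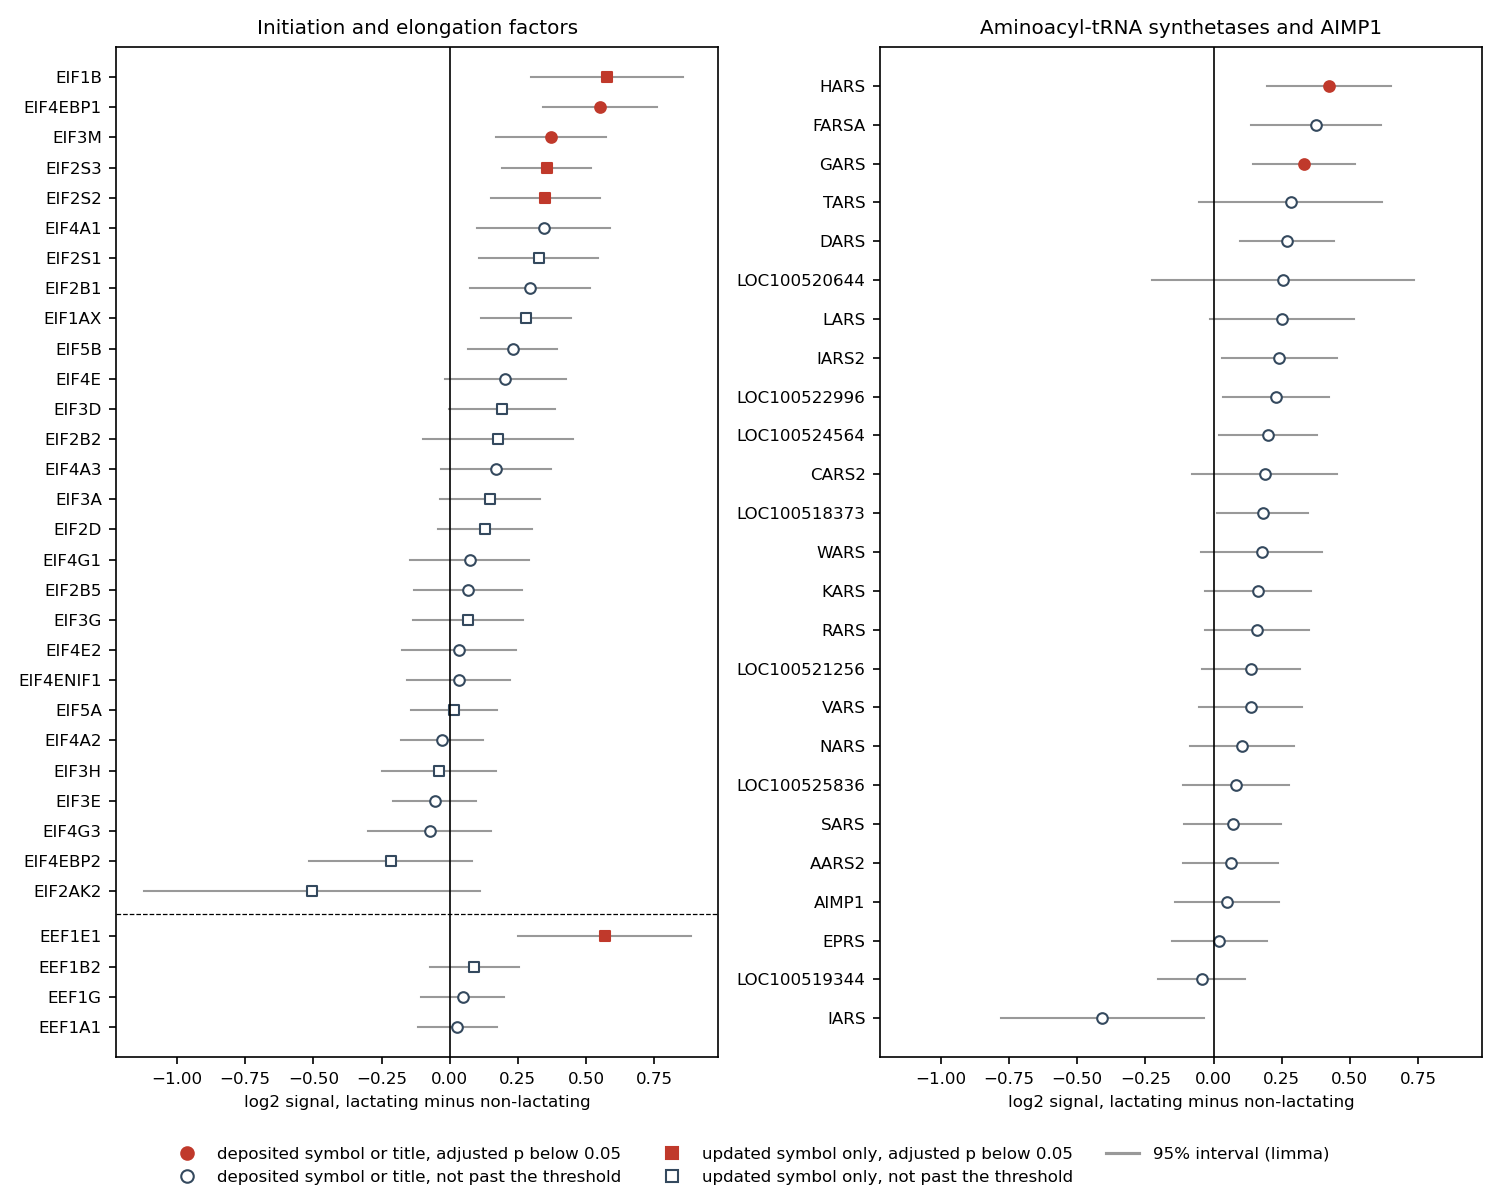
Difference in log2 signal, lactating minus non-lactating (horizontal axis), with 95% limma intervals, for the 41 members (circles) and 16 further factors recognised only by their updated symbol (squares); filled markers passed the adjusted threshold. The 8 filled markers all lie right of 0, and IARS and EIF2AK2 are the lowest points.

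EIF4EBP1 is the EIF4E-binding protein that blocks cap-dependent initiation until mTORC1 phosphorylates it. Its log2 signals were 8.67, 9.05, 8.71 and 8.82 in lactating pools 1 to 4, and 8.35, 8.20, 8.23 and 8.25 in non-lactating pools 1 to 4. The groups did not overlap, and the gap between the lowest lactating and the highest non-lactating pool was wider than the whole spread of the non-lactating pools. The difference was 0.55 ± 0.09 (SE, 1.47-fold; limma adjusted p = 0.0150), and it passed the threshold in all 8 fits that left out a pool. The fit with the 3′ minus 5′ covariate gave EIF4EBP1 an SE of 0.14 and an adjusted p of 0.287. The deposited alignment column gives no position for this probe set.

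The second binding protein, EIF4EBP2, was among the genes recognised only by an updated symbol. Its brightest probe set averaged 10.45 ± 0.19 in lactating and 10.67 ± 0.23 in non-lactating pools (SD, n = 4 each), a difference of -0.22 (limma adjusted p = 0.377). Its 4 other probe sets ran from -0.19 to 0.25, so that the sign depended on the probe set. EIF4ENIF1, which carries EIF4E into the nucleus, differed by 0.03 (limma adjusted p = 0.871). A test of EIF4EBP1 against these relatives was not made.

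Among the EIF4A, EIF4E and EIF4G members 0 of 7 passed the limma test, and 1, EIF4A1, had an unadjusted p below 0.05. EIF4E itself averaged 6.16 ± 0.17 in lactating and 5.96 ± 0.11 in non-lactating pools, a difference of 0.20 (SD, n = 4 each; limma adjusted p = 0.255). EIF4A1, the helicase that unwinds the 5′ end of messages, had signals of 10.75, 10.85, 11.14 and 11.14 in lactating pools, and 10.61, 10.50, 10.60 and 10.78 in non-lactating pools. Lactating pools 3 and 4 were high, and lactating pool 1 lay below non-lactating pool 4. The EIF4A1 difference of 0.34 ± 0.11 missed the threshold (limma adjusted p = 0.0912). Its paralog EIF4A2, one of the brightest initiation factor probe sets, read 12.84, 12.77, 12.92 and 12.85 in lactating pools and 12.84, 12.85, 12.89 and 12.92 in non-lactating pools. These ranges overlapped throughout, and the EIF4A2 difference of -0.03 had a 95% interval of -0.18 to 0.12. EIF4A3, a helicase of the exon junction complex, differed by 0.17 (limma adjusted p = 0.297), and the cap-binding relative EIF4E2 by 0.03 (0.881). The scaffolds EIF4G3 and EIF4G1 differed by -0.07 and 0.07, and the EIF4G1 probe set was dim, at 4.37 in lactating and 4.30 in non-lactating pools.

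EIF3 is the large scaffold that holds the small subunit during initiation. EIF3M, one of its subunits, gave 10.39, 10.54, 10.46 and 10.36 in lactating pools, and 9.89, 10.25, 10.03 and 10.10 in non-lactating pools. All lactating pools lay above all non-lactating pools, with non-lactating pool 1 the lowest of the 8. The EIF3M difference was 0.37 ± 0.09 (SE, 1.29-fold; limma adjusted p = 0.0393). It was past the threshold in 1 of 8 fits that left out a pool, the one without non-lactating pool 2, with limma adjusted p-values of 0.0345 to 0.101 and differences of 0.31 to 0.43. The deposited alignment places this probe set on the minus strand of chromosome 2 between 26438829 and 26463183, beside another EIF3M probe set that differed by 0.21 (limma adjusted p = 0.279), while the cluster title in the deposited table names a major histocompatibility gene. EIF3E, a bright member and also an EIF3 subunit, read 11.52, 11.58, 11.62 and 11.56 in lactating pools against 11.58, 11.71, 11.57 and 11.64 in non-lactating pools. The groups overlapped, with an EIF3E difference of -0.06 (limma adjusted p = 0.698). Of 4 further EIF3 subunits known by updated symbol, 0 passed the limma test and 0 had an unadjusted p below 0.05: EIF3D differed by 0.19, EIF3A by 0.15, EIF3G by 0.07 and EIF3H by -0.04.

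EIF2 carries the start tRNA to the ribosome, and EIF2B reloads it with GTP. EIF2B1, the regulatory alpha subunit, averaged 9.14 ± 0.09 in lactating and 8.85 ± 0.18 in non-lactating pools, a difference of 0.30 (SD, n = 4 each; limma adjusted p = 0.104), and its other, dimmer probe set gave -0.09. EIF2B5, the catalytic subunit, differed by 0.07 (limma adjusted p = 0.717). EIF5B, the GTPase that joins the ribosomal subunits, differed by 0.23 without overlap between the groups (limma adjusted p = 0.0906). The deposited target description of that EIF5B probe set names a gene like REV1, and a probe set assigned to EIF5B together with a provisional locus differed by 0.03 (0.926).

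The 3 subunits of EIF2 carried provisional names in the deposited table and entered with the updated symbols. Of the 16 genes that entered in this way 4 rose and 0 fell, where 8.63% of all genes changed under updated symbols. EIF2S3, the gamma subunit that binds GTP and the tRNA, had 10.78, 10.76, 10.91 and 10.94 in lactating pools and 10.52, 10.55, 10.44 and 10.46 in non-lactating pools. Its groups stood clear of each other with little spread within either, and the EIF2S3 difference was 0.36 ± 0.07 (SE; limma adjusted p = 0.0239). The call held without lactating pool 1, lactating pool 2 or non-lactating pool 2 and was lost without any of the other 5 pools (differences 0.33 to 0.38, limma adjusted p = 0.0314 to 0.0644). EIF2S2, the beta subunit, had 11.41, 11.43, 11.59 and 11.59 in lactating pools, against 10.99, 11.10, 11.23 and 11.29 in non-lactating pools. The EIF2S2 groups did not overlap, but lactating pool 1 lay close to non-lactating pool 4, and the difference of 0.35 ± 0.09 passed narrowly (limma adjusted p = 0.0464). It was lost in all 8 fits without a pool, at differences of 0.30 to 0.40 (0.0527 to 0.118). Neither call held after cyclic loess or with the 3′ minus 5′ covariate, where EIF2S3 differed by 0.31 ± 0.12 and EIF2S2 by 0.19 ± 0.13 (SE; limma adjusted p = 0.435 and 0.650). EIF2S1, the alpha subunit that the stress kinases phosphorylate, averaged 10.77 ± 0.16 in lactating and 10.45 ± 0.11 in non-lactating pools, a difference of 0.33 (SD, n = 4 each; limma adjusted p = 0.0755).

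EIF1B and EIF1AX belong to the small factors that help the ribosome find the start codon. EIF1B had 10.90, 11.18, 11.46 and 11.19 in lactating pools and 10.37, 10.72, 10.63 and 10.70 in non-lactating pools. Pool 1 was the lowest of its group in both conditions, and the groups did not overlap. The EIF1B difference of 0.58 ± 0.12 (SE, 1.49-fold; limma adjusted p = 0.0278) was the highest over the initiation factors of both kinds. It stayed past the threshold without lactating pool 1 or non-lactating pool 2 and was lost without any of the other 6 pools (differences 0.48 to 0.67, limma adjusted p = 0.0196 to 0.0751). With the 3′ minus 5′ covariate EIF1B differed by 0.37 ± 0.18 and did not pass (SE; limma adjusted p = 0.527). EIF1AX differed by 0.28 and missed the threshold (limma adjusted p = 0.0517), and its other probe set gave -0.0069 (0.986). EIF2D, which can deliver tRNA outside the EIF2 pathway, differed by 0.13 (0.362), and EIF2B2, the EIF2B beta subunit, by 0.18 (0.439).

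EIF2AK2 is the kinase that double-stranded RNA activates, and interferon is known to raise it. It read 8.64, 7.51, 8.29 and 8.41 in lactating pools and 9.08, 9.15, 8.52 and 8.13 in non-lactating pools. Both groups were wide, with the lowest value in lactating pool 2 and the next lowest in non-lactating pool 4, and the difference of -0.51 ± 0.28 did not pass (limma adjusted p = 0.314). Of 12 interferon-stimulated genes, 12 had a negative difference, with a median of -0.26, and 0 passed the limma test (2 at an unadjusted p below 0.05). WARS, an interferon-responsive synthetase in human cells, did not share that sign at its brightest probe set, with 8.40 ± 0.13 in lactating and 8.22 ± 0.15 in non-lactating pools, a difference of 0.18 (SD, n = 4 each; limma adjusted p = 0.331). The other WARS probe sets gave 0.32, -0.09 and -0.25.

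**Figure D2:**
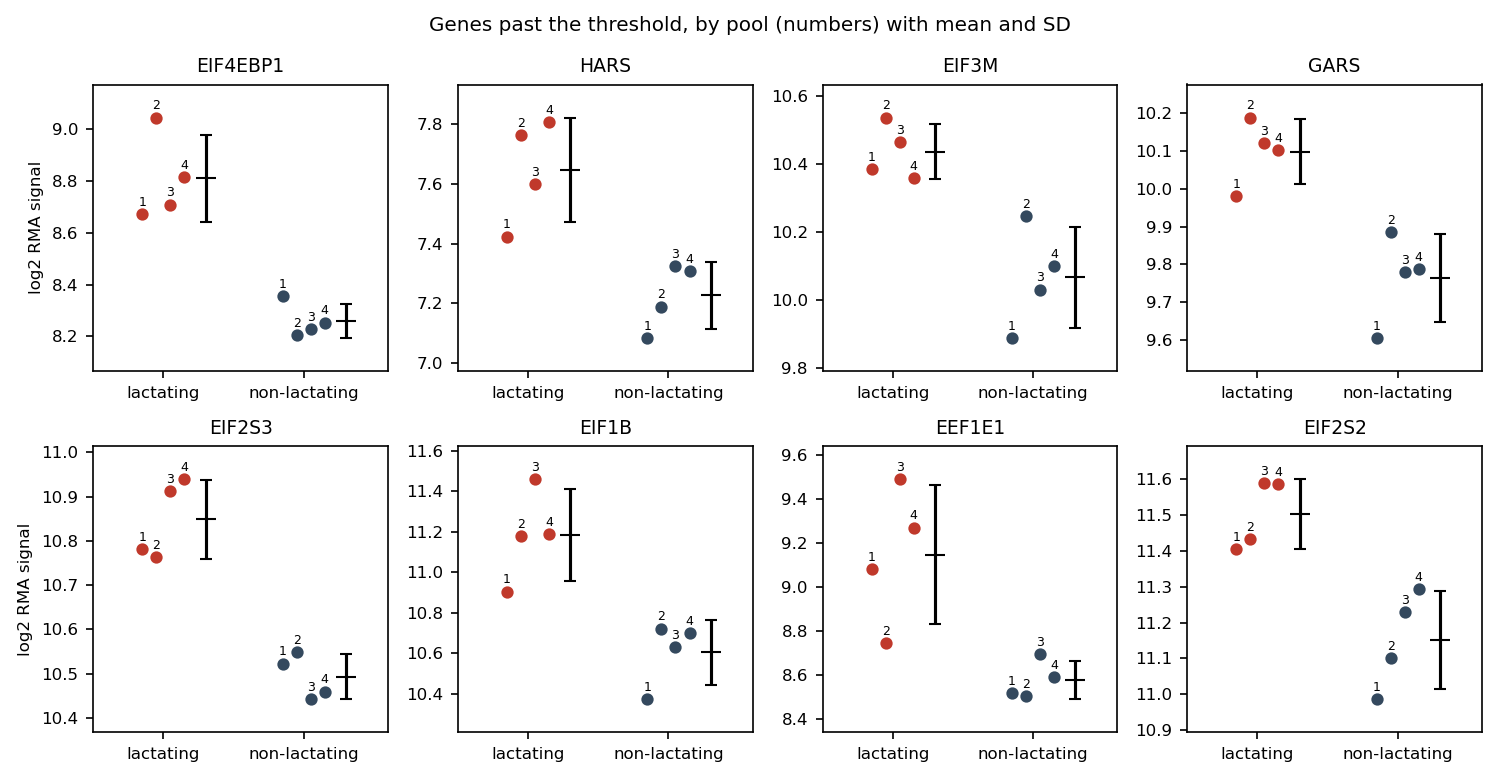
Log2 RMA signal (vertical axis, its own range in each panel) of the 8 genes past the threshold, by pool, with lactating pools left and non-lactating pools right; numbers are pool numbers, and bars give the mean and SD. The upper row holds the 4 members and the lower row the 4 genes known by updated symbol, and in each panel the lowest lactating pool lies above the highest non-lactating pool.

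The 2 elongation factors overlapped between the groups at their brightest probe sets. EEF1A1, which delivers charged tRNAs to the ribosome, read 14.38, 14.38, 14.32 and 14.29 in lactating pools and 14.26, 14.32, 14.35 and 14.32 in non-lactating pools. The groups overlapped, with an EEF1A1 difference of 0.03 and a 95% interval of -0.12 to 0.17 (limma adjusted p = 0.854). A dimmer EEF1A1 probe set, aligned to the opposite strand of the same chromosome, differed by 0.48 ± 0.14 (SE; limma adjusted p = 0.0794). EEF1G, a subunit of the exchange factor that recharges EEF1A1 with GTP, read 12.45, 12.45, 12.41 and 12.44 in lactating pools and 12.34, 12.48, 12.41 and 12.33 in non-lactating pools. It too overlapped, with a difference of 0.05 (limma adjusted p = 0.748). After cyclic loess both signs turned, to -0.05 for EEF1A1 and -0.03 for EEF1G. EEF1B2, the catalytic exchange subunit by updated symbol, differed by 0.09 (0.525).

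Control probe sets for the transcript of EEF1A1 gave a different value at each position along it. At the 3′ end the EF1ALPHA control differed by -0.01, in the middle by 0.28 and at the 5′ end by 0.46. The middle control read 13.60 to 13.64 in lactating pools, above the 13.11 to 13.48 of non-lactating pools (exact permutation p = 0.0286, adjusted over the 3 positions 0.0857). The 5′ control overlapped between the groups, and non-lactating pool 1 was lowest there, at 10.73 (exact permutation p = 0.0857, adjusted 0.129). For this transcript the estimate was larger farther from the 3′ end.

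EEF1E1, known also as a scaffold of the complex that gathers several synthetases, passed the test. Its log2 signals were 9.08, 8.75, 9.49 and 9.27 in lactating pools, against 8.52, 8.51, 8.70 and 8.59 in non-lactating pools. The lactating pools were widely spread, and lactating pool 2 lay just above non-lactating pool 3. The EEF1E1 difference was 0.57 ± 0.14 (SE; limma adjusted p = 0.0426), and its other, dimmer probe set differed by 0.89 ± 0.18 (0.0227). The call at the brighter probe set held without lactating pool 2 and was lost without any of the other 7 pools (differences 0.45 to 0.70, limma adjusted p = 0.0244 to 0.111). It was also lost after cyclic loess and with the 3′ minus 5′ covariate, at a difference of 0.36 ± 0.21 (SE; limma adjusted p = 0.604). EEF1A2, EEF1D, EEF2 and EEF2K were not analysed here.

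Of 25 genes in the synthetase class, 23 had a positive difference, with a median of 0.18, and 2 passed the test, 8.0% of the class, against 8.61% of all genes. HARS, which charges the histidine tRNA, read 7.42, 7.76, 7.60 and 7.81 in lactating pools and 7.08, 7.19, 7.32 and 7.31 in non-lactating pools. Pool 1 was the lowest of each group, and the lowest lactating pool stood just above the highest non-lactating one. HARS differed by 0.42 ± 0.10 (SE, 1.34-fold; limma adjusted p = 0.0381) at a probe set on chromosome 2, positions 129395971 to 129400077, minus strand. The HARS call held without lactating pool 1 and was lost without any of the other 7 pools, with differences of 0.37 to 0.50 and limma adjusted p-values of 0.0240 to 0.107. A dimmer HARS probe set toward the 5′ end differed by 0.07 (0.844).

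GARS charges the glycine tRNA in both cytosol and mitochondria. It read 9.98, 10.19, 10.12 and 10.10 in lactating pools and 9.61, 9.89, 9.78 and 9.79 in non-lactating pools. Pool 1 was lowest and pool 2 highest in both groups, with no overlap between them. The GARS difference was 0.33 ± 0.08 (SE, 1.26-fold; limma adjusted p = 0.0437) at chromosome 18, positions 40739508 to 40750744, minus strand, and 2 dimmer GARS probe sets gave 0.39 (0.0437) and 0.19 (0.370). The GARS call held without lactating pool 1 or non-lactating pool 2 and was lost without any of the other 6 pools, with differences of 0.28 to 0.37 and limma adjusted p-values of 0.0427 to 0.111.

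The next synthetases by size missed the threshold. FARSA, the catalytic subunit for phenylalanine, averaged 9.73 ± 0.18 in lactating and 9.36 ± 0.13 in non-lactating pools (SD, n = 4 each), a difference of 0.38 without overlap (limma adjusted p = 0.0635), and its dimmer probe set passed, at 0.52 (0.0273). DARS, for aspartate, had 10.39, 10.23, 10.28 and 10.31 in lactating pools and 9.99, 10.18, 9.98 and 9.97 in non-lactating pools. Non-lactating pool 2 stood alone near the lactating values, and DARS differed by 0.27 (limma adjusted p = 0.0669). The cytosolic enzymes for alanine (LOC100524564) and methionine (LOC100518373) differed by 0.20 and 0.18, also without overlap and also not past the threshold (0.170 and 0.189). TARS for threonine and LARS for leucine differed by 0.28 and 0.25 with overlapping pools.

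The brightest synthetase probe sets overlapped between the groups. NARS, for asparagine, read 11.47, 11.35, 11.32 and 11.19 in lactating pools and 11.32, 11.09, 11.23 and 11.28 in non-lactating pools. KARS, for lysine, read 11.28, 11.31, 11.47 and 11.16 in lactating pools and 11.08, 11.22, 11.23 and 11.04 in non-lactating pools. Their differences were 0.11 for NARS and 0.16 for KARS (limma adjusted p = 0.527 and 0.306). The remaining cytosolic enzymes RARS (0.16), VARS (0.14), the glutamine enzyme LOC100525836 (0.08), SARS (0.07) and EPRS (0.02) also missed the threshold, and the scaffold AIMP1 differed by 0.05. The other AIMP1 probe set differed by 0.23 without overlap between the groups (limma adjusted p = 0.124).

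IARS, for isoleucine, was the exception in sign among the cytosolic synthetases. It read 10.27, 9.56, 10.28 and 10.35 in lactating pools, against 10.60, 10.35, 10.46 and 10.68 in non-lactating pools. Every lactating pool was below every non-lactating pool, by a small step except for lactating pool 2, which was far below the rest, and lactating pool 4 and non-lactating pool 2 were equal to 2 decimals. The IARS difference of -0.41 ± 0.17 did not pass (limma adjusted p = 0.179). Its probe set aligned over 62.2% of its target, to chromosome 3, positions 37298342 to 37298564, minus strand.

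Mitochondrial synthetases charge the tRNAs encoded in or imported into mitochondria, and 0 of 7 passed the limma test (2 at an unadjusted p below 0.05), with 6 positive differences and a median of 0.19. The mitochondrial methionine enzyme LOC100520644 had the widest lactating spread, 7.71 ± 0.49 in lactating against 7.46 ± 0.21 in non-lactating pools (SD, n = 4 each), with a difference of 0.26 (limma adjusted p = 0.543). IARS2 differed by 0.24 (0.159) and the mitochondrial tryptophan enzyme LOC100522996 by 0.23 (0.148), the smallest adjusted p of the 7. CARS2 for cysteine, the histidine enzyme LOC100521256 and AARS2 for alanine differed by 0.19, 0.14 and 0.06. The arginine enzyme LOC100519344 differed by -0.04 (0.790).

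Several synthetases and scaffolds join in a multisynthetase complex, of which 10 genes were measured. Of these, 9 had a positive difference, with a median of 0.16 over the 10, where 52.4% of all genes under deposited symbols were positive. At the brightest probe sets EEF1E1 alone passed the limma test, where 8.63% of all genes changed under updated symbols. EPRS, the fused glutamate and proline enzyme of this complex, gave values that depended on the probe set. Its brightest probe set averaged 10.24 ± 0.09 in lactating and 10.22 ± 0.09 in non-lactating pools. Its 3′-most probe set read 10.05, 10.11, 10.26 and 10.19 in lactating pools and 9.44, 9.73, 9.67 and 9.65 in non-lactating pools, with a difference of 0.53 ± 0.09 (SE; limma adjusted p = 0.0134). The lactating EPRS pools at that probe set all lay above the non-lactating ones, whereas a dim EPRS probe set near the 5′ end gave -0.03.

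Probe sets of a gene often disagreed about the sign or the call. In 12 members with more than 1 probe set, 16 other probe sets were compared with the one that stood for the gene. Of these, 6 shared its sign and its side of the threshold, and 5 shared the sign but lay on the other side. The remaining 5 had the opposite sign but lay on the same side of the threshold. Among members and further genes together, 10 had probe sets at separate places on 1 locus and strand. The 3′-most probe set had the larger difference in 6 of them and the 5′-most in 4. Low signal limits this count. Where the 3′ difference was larger, the 5′-most probe set averaged 4.60 for EPRS, 4.86 for GARS, 5.35 for EIF2B1 and 5.40 for HARS. It was brighter for SARS, at 6.69, and for EIF1AX, at 9.97. Where the 5′ difference was larger, the 5′-most probe set averaged 5.24 for FARSA, 6.02 for EEF1E1, 8.65 for EIF5A and 10.25 for EIF3M. The part of signal level was not tested. EIF5A, the factor that carries hypusine and relieves stalled ribosomes, was at 0.02 at its brighter 3′ probe set (limma adjusted p = 0.928). The 5′ EIF5A probe set read 8.88, 8.74, 9.07 and 9.01 in lactating pools and 8.13, 8.58, 8.52 and 8.30 in non-lactating pools, a difference of 0.54 ± 0.12 (0.0273).

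**Figure D3:**
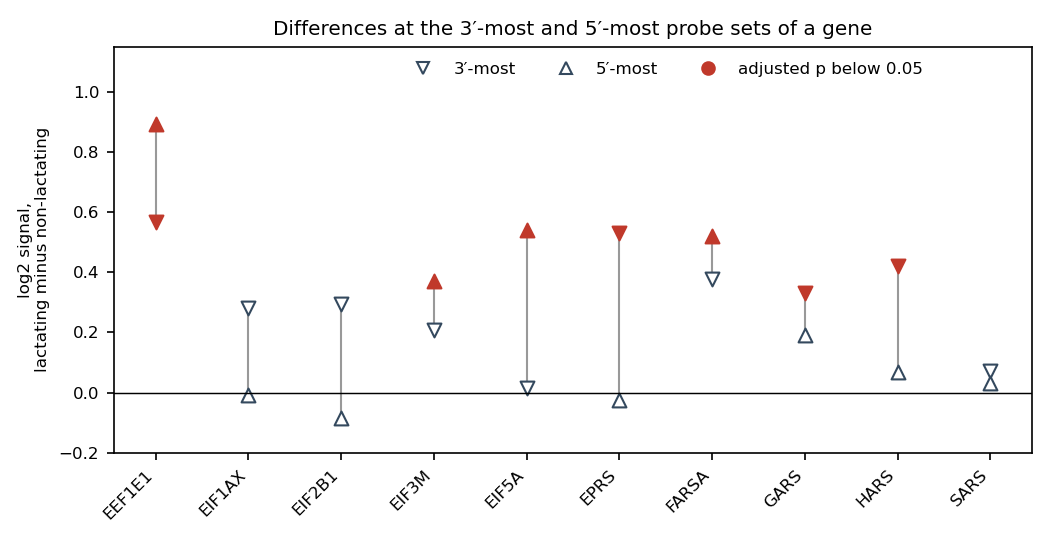
Difference in log2 signal, lactating minus non-lactating (vertical axis), at the 3′-most (downward triangles) and 5′-most (upward triangles) probe sets of the 10 genes whose probe sets lie apart on 1 strand; filled triangles have a limma adjusted p below 0.05. EEF1E1 passed at both ends, 6 genes passed at 1 end, and neither end was the larger in all genes.

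Averaged over each class, the lactating pools also stood above the non-lactating pools for initiation factors and synthetases. Set against the non-lactating mean, the 14 initiation factors were at 0.09, 0.16, 0.21 and 0.18 in lactating pools 1 to 4, and at -0.04, 0.02, -0.04 and 0.06 in non-lactating pools. The 25 synthetase genes were at 0.15, 0.14, 0.18 and 0.17 in lactating pools, and at -0.06, 0.02, 0.01 and 0.04 in non-lactating pools. For all 8238 genes the same reading was 0.02 to 0.04 in lactating and -0.01 to 0.01 in non-lactating pools, smaller than the readings of both classes in lactating pools. Non-lactating pool 1, which had the highest 3′ minus 5′ reading, was the lowest of its group in 19 of 41 members. The same count over all genes was not made, but the mean of all 8238 genes was also lowest of its group in that pool, at -0.01. The part of non-lactating pool 1 in the result was not tested beyond the fit without it, in which 1 of 41 members passed and 34 had a positive difference.

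**Figure D4:**
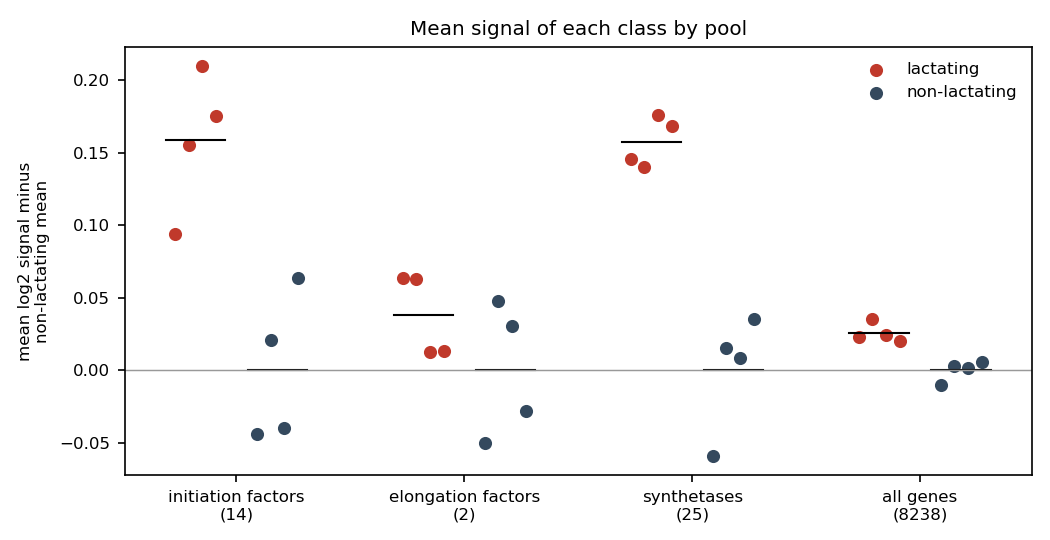
Mean log2 signal of each class in each pool, set against the mean of the 4 non-lactating pools (vertical axis), with lactating pools left and non-lactating pools right in each class; short lines are group means. Lactating pools lie at 0.09 to 0.21 for initiation factors and 0.14 to 0.18 for synthetases, above all non-lactating pools, while the 2 elongation factors overlap.

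Other genes of translation and its control were measured too, and the counts in these short lists stand beside 8.61% of all genes changed under deposited symbols and 8.63% under updated symbols. Of 11 release, recycling and mRNA-binding factors, 1 rose and 0 fell, with a median of 0.19. The one past the threshold was GSPT2, a GTPase of translation termination, at 0.37 (limma adjusted p = 0.0339), and the poly(A)-binding protein PABPC1 differed by 0.19 (0.138). Of 7 mitochondrial translation factors 2 rose, the glutaminyl-tRNA amidotransferase subunit GATC by 0.39 and the elongation GTPase GUF1 by 0.41 (0.0314 and 0.0294). DPH3, which helps make the diphthamide of EEF2, rose by 0.41 as 1 of 4 hypusine and diphthamide enzymes (0.0279), and the tRNA ligase RTCB, which joins the pieces of spliced tRNAs, rose by 0.49 as 1 of 11 tRNA processing genes (0.0262).

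The same shares apply to the genes upstream of these factors. Of 19 genes of the mTORC1 pathway 1 rose, the lysosomal scaffold LAMTOR2 by 0.42 (limma adjusted p = 0.0406), and the median was 0.04. Of 16 ATF4 and amino acid response targets 2 rose, the serine synthesis enzyme PHGDH by 0.59 (0.0383) and the transcription factor CEBPG by 0.42 (0.0441), with a median of 0.15. PSPH, the last enzyme of serine synthesis, and ASNS, asparagine synthetase, were singled out after their values were seen. PSPH differed by 1.59 ± 0.43 and ASNS by 0.76 ± 0.30 (SE; limma adjusted p = 0.0553 and 0.170), and ATF4 itself by 0.13 (0.376). ASNS read 8.19, 7.73, 6.71 and 6.67 in lactating pools, against 6.65, 6.46, 6.58 and 6.58 in non-lactating pools. Lactating pools 3 and 4 thus lay close to the non-lactating values. Of the 16 targets, 13 had a positive and 3 a negative difference, the lowest being GPT2 at -0.37 (limma adjusted p = 0.202). Among 51 genes with cytosolic ribosomal protein symbols 0 passed, with a median of 0.03 and 7 at an unadjusted p below 0.05, and among 30 proteasome subunits 5 rose, with a median of 0.25. The median of the 41 members, 0.16, lay between these, and the differences between the lists were not tested.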

How the data were processed

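The authors deposited log2 signals made with Affymetrix Expression Console and RMA, per the submitters' processing notes, with versions not given in the sources used here. Per the file headers, the table also holds the authors' ratios and p-values from an equal-variance test, not used here, including 8 columns of pool-against-pool ratios. RMA quantile normalises arrays, so a shift of all transcripts together would not show. No batch dates were used, and the 8 arrays limit the precision.

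Of 24123 probe sets, 124 controls were left out and 23999 fitted with limma 3.58.1 (lmFit and eBayes) in R 4.3.3, 4 lactating against 4 non-lactating pools, 2-sided, with Benjamini-Hochberg adjustment over all 23999 and a threshold of 0.05. Adjusted p-values of genes are from this fit, except those given for a fit without a pool or with the 3′ minus 5′ covariate. Exact permutation tests (SciPy 1.17.1) served the control transcripts. Symbols were updated through the Sscrofa11.1 gene table by Entrez identifier for 32 of 41 members, and 9 kept theirs. Positions are those of the deposited alignment column, whose assembly is not named. Members, lists and the rule for named genes (members past the threshold and the 2 brightest of each class in every pool, the 3 highest and lowest differences of each class, and a fixed list) were chosen with earlier results of these data known. One further list of cell markers is not reported here. Probe sets counted as separate where their alignments overlapped by at most 10%. The code was tested on simulated data, and alternatives are given in the closing section. Equal pool numbers correlated at 0.07 to 0.24 in their deviations from the group means, not all above 0.1, so pools were not taken as paired.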

Additional observations from a re-analysis of the deposited data

Results flagged for a closer look

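In 114 groups of 4 pools (members and further factors in each condition), 4 held a pool far from the other 3 by Dixon's ratio at its 95% critical value, where chance gives about 1 in 20. DARS was high in non-lactating pool 2, at 10.18, with the other non-lactating pools at 9.97 to 9.99. IARS was low in lactating pool 2, at 9.56, with the others at 10.27 to 10.35. EIF2D was low in non-lactating pool 1, at 7.13, with the others at 7.22 to 7.23. EIF3G was low in the same pool, at 10.76, with the others at 11.03 to 11.05.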

How the results depend on the processing

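EIF4EBP1 kept its call in all 8 fits without a pool and under the rounded deposited values, cyclic loess, an intensity trend, robust estimation, the filter on dim probe sets and the replicate block. Without each pool in turn, 1 to 3 of 41 members changed, 1 to 2 initiation factors and 0 to 2 synthetases, with class medians of 0.087 to 0.17 for initiation factors, 0.021 to 0.054 for elongation factors and 0.13 to 0.19 for synthetases, and over all probe sets 406 to 1424 changed against 1643. With the replicate block, 4 members and 1790 probe sets changed; 5 of 8 pools correlated best with the pool of their own number, which is a hint from the data only. The equal-variance test of the deposited header called 0 of 41 members, 0 initiation factors and 0 synthetases after adjustment (0 of 23999 probe sets; 4964 and 13 members at an unadjusted p below 0.05). With the 3′ minus 5′ covariate, 0 members changed, 0 in each class, and the synthetase median was 0.13; cyclic loess gave 2 members, 1 initiation factor and 1 synthetase, with medians of 0.14 for synthetases and -0.041 for elongation factors. The mean of all probe sets of a gene gave 1 initiation factor and an elongation median of 0.15, and the probe set with the largest range gave 4 synthetases and an elongation median of 0.26. Updated symbols gave 8 of 58 genes (the 41 members, the 16 that entered and VARS2, split from VARS), 5 initiation factors and 1 elongation factor. Leaving out EIF3M, EIF5B and IARS, chosen after seeing the data, gave 1 initiation factor and a median of 0.070. The cause of these shifts was not tested.

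Among the deposited symbols whose value turned sign, none had passed the threshold. Under the covariate these were AARS2 (-0.043), AIMP1 (-0.0026), EEF1G (-0.0055), EIF4E2 (-0.0093), EIF4G1 (-0.054), LOC100520644 (-0.0237) and TARS (-0.0240). Under cyclic loess they were AIMP1 (-0.014), EEF1A1 (-0.054), EEF1G (-0.028) and EPRS (-0.0397). LOC100525836 gave -0.079 with the mean of its probe sets and -0.24 with the one of largest range. The deposited symbol VARS gave -0.014 and -0.16 under the same choices, but its other probe set is that of VARS2 by updated symbol, so these are not sign turns of VARS itself. Without a pool, AIMP1 ran from -0.0091 to 0.096, EIF4E2 from -0.023 to 0.093, EIF4ENIF1 from -0.0017 to 0.084 and EPRS from -0.012 to 0.063. Signals near the array floor limit what can be read from EIF4G1 and from dim second probe sets.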
